A study of Schizosaccharomyces pombe with 8 samples.

Results

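The genes fil1 (SPCC1393.08.1), pac2 (SPAC31G5.11.1) and sfp1 (SPAC16.05c.1) of the fission yeast Schizosaccharomyces pombe encode regulators of transcription. They are 3 of the 527 genes in the deposited count table, matched by their systematic identifiers, and were chosen by their WT values, being among the genes highest in polysome RNA over total RNA in wild-type cells. The WT difference between polysome and total RNA is therefore given as a description with no test. Of a list of 70 fission yeast transcription regulators, these 3 genes were the members found in the table.

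The study asked how RNA abundance and polysome association depend on Slr1p, the fission yeast homolog of the RNA-binding protein LARP1. The groups were slr1- cells, labelled as a knockout, in polysome RNA and in total RNA, and WT cells of strain yAS99 in polysome RNA and in total RNA, with 2 libraries labelled as biological replicates in each of the 4 groups. All 8 libraries, WT included, came from cells grown in YES medium, a rich yeast extract medium, at 32 °C, with 100 µg/mL cycloheximide, which arrests ribosomes on mRNA. Totals over the listed genes were 550490 to 1110838 counts per library. The sources used here do not give how slr1 was disrupted or how polysomes were separated, and the labels do not say whether total and polysome RNA of the same replicate number came from the same culture. The slr1 transcript was not analysed here, so every direction rests on the sample labels.

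Fil1 is a GATA-type zinc finger transcription factor that activates amino acid synthesis genes in fission yeast, the role that Gcn4 has in budding yeast. Its translation is known to be raised when the eIF2 kinase Gcn2 responds to a lack of amino acids, through short upstream reading frames in the mRNA leader, the part before the main start codon. Pac2 holds back expression of ste11, the gene of the master activator of mating and meiosis, by a route that does not depend on cAMP. Sfp1 is a zinc finger protein, and its budding yeast namesake activates ribosomal protein and ribosome biogenesis genes in response to nutrients and TOR signalling.

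The mRNA leaders of fil1 and sfp1 were among the longest of the table in the RefSeq annotation of assembly ASM294v3. The fil1 leader was 965 bases long and the sfp1 leader 881 bases, against a median of 42 bases over the 502 listed genes with an annotated leader. Only pma1, the plasma membrane proton pump gene (1432 bases), and acs1, an acetyl-CoA ligase gene (995 bases), had a leader longer than that of fil1. The pac2 gene model holds the 708 bases of coding sequence and no untranslated part, so its leader was not analysed here.

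The leaders of fil1 and sfp1 differed in their upstream start codons. The fil1 leader held 6 ATG triplets, the highest number among the 502 leaders, and each was followed by a stop codon in frame before the main start. They formed 5 upstream reading frames, since the ATGs at leader bases 615 and 618 shared a stop codon. The sfp1 leader held 0 ATG triplets. Of the 502 leaders, 486 held none, and 3.19% held at least 1. Per kilobase of leader, fil1 had 6.22 ATGs against 0.623 over all listed leaders summed. The base composition of the leaders was 22.9% A, 18% C, 11.4% G and 47.7% T in fil1 and 29.9% A, 16.5% C, 11.1% G and 42.6% T in sfp1, against 30.8% A, 19.6% C, 13.2% G and 36.5% T over all listed leaders.

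The fil1 upstream frames of at most 30 bases are shown because they are the feature that sets its leader apart from that of sfp1, with the start and the stop codon in capitals and the positions counted from 1 at the annotated 5′ end. They lie on the + strand of chromosome III at chrIII:811886-811894 (leader base 197), chrIII:812016-812045 (base 327), chrIII:812071-812085 (base 382) and chrIII:812304-812312 (base 615). The fifth frame, at base 778, was 33 bases long and ended 155 bases before the main start.
fil1 frame at base 197: ATGtgtTAA
fil1 frame at base 327: ATGcttcgttcgtcctcgtgtcgtcgtTAA
fil1 frame at base 382: ATGttgtctcatTGA
fil1 frame at base 615: ATGatgTAA
These frames were short, with 2, 9, 4 and 2 codons before the stop, and those at bases 327 and 615 were in the main reading frame. The main start codons, in capitals, stand at chrIII:812646-812666 on the + strand (fil1), chrI:3006129-3006149 on the + strand (pac2) and chrI:4433621-4433641 on the - strand (sfp1), and are shown with 9 bases on either side as the sites where the proteins begin.
fil1 start: tttgttatcATGaattacaac
pac2 start: cctttcgtcATGcaaacttat
sfp1 start: cttttcaatATGccatctctc
LARP1 proteins are known to bind 5′TOP mRNAs, which open with a C and a run of pyrimidines, so the first 20 bases of the annotated transcripts are shown, all in lower case since neither opens with a pyrimidine run. They lie at chrIII:811690-811709 (fil1, + strand) and chrI:4434494-4434513 (sfp1, - strand).
fil1 5′ end: aacaaccaacaacaccacaa
sfp1 5′ end: attctgactaacttcaacgt
Both annotated ends open with A, as did 69.3% of the 502 leaders, while 0.398% opened with at least 4 pyrimidines. Where transcription starts in these cells was not measured.

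All 3 mRNAs were higher in polysome than in total RNA in slr1- cells, whose libraries the choice of the genes did not use. The fold was 2.97 for fil1, 2.63 for pac2 and 2.48 for sfp1, and every gene passed the edgeR quasi-likelihood test (the threshold throughout was a Benjamini-Hochberg adjusted p under 0.05 over 527 genes). Of all listed genes, 64.7% were called in this comparison, 34% higher and 30.7% lower, so a call by itself was common. The table's median log2 difference was 0.06, with the members far above it. Their ranks among the 527 genes were 14, 21 and 28.

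The fil1 mRNA had raw counts of 631 and 549 in the slr1- polysome libraries and of 213 and 269 in the slr1- total libraries. After TMM scaling, a between-library normalisation, the normalised counts were 618 ± 69.4 in slr1- polysome RNA and 209 ± 48.5 in slr1- total RNA (mean ± SD, n = 2 libraries each). The polysome libraries lay above the total libraries with no overlap, and the lower polysome value was 2.34 times the higher total value. Such a separation upward was seen for 44.2% of the listed genes. The log2 difference was 1.57 ± 0.19 SE (edgeR adjusted p = 4.4e-05).

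The pac2 mRNA had raw counts of 448 and 397 in slr1- polysome RNA and of 190 and 200 in slr1- total RNA. Its normalised counts were 443 ± 44.0 in slr1- polysome RNA and 168 ± 17.7 in slr1- total RNA (SD, n = 2 each). The groups did not overlap, and the log2 difference was 1.40 ± 0.17 SE (edgeR adjusted p = 4.6e-05).

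The sfp1 mRNA had raw counts of 441 and 405 in slr1- polysome RNA and of 189 and 224 in slr1- total RNA. Its normalised counts were 443 ± 32.9 in slr1- polysome RNA and 179 ± 33.6 in slr1- total RNA (SD, n = 2 each). These groups did not overlap either, and the log2 difference was 1.31 ± 0.16 SE (edgeR adjusted p = 4.9e-05). The 3 genes thus had nearby values, and differences between them were not tested.

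These log2 differences shift with the scaling. Ribosomal protein genes held 42.1% and 43.2% of the listed counts in slr1- polysome RNA and 54.3% and 50.3% in slr1- total RNA, and their part in the result was not tested. With library totals alone the table's median moved by 0.41 and the calls were 292 higher and 94 lower, and with TMM factors computed without ribosomal protein genes it moved by -0.37, with 100 higher and 246 lower, against 179 higher and 162 lower with TMM. The 3 members were called higher under each scaling. Scaling factors shift all genes nearly alike, so the distance from the table's median, 1.51 for fil1, 1.34 for pac2 and 1.25 for sfp1, is fixed by construction and says nothing of robustness.

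**Figure D1:**
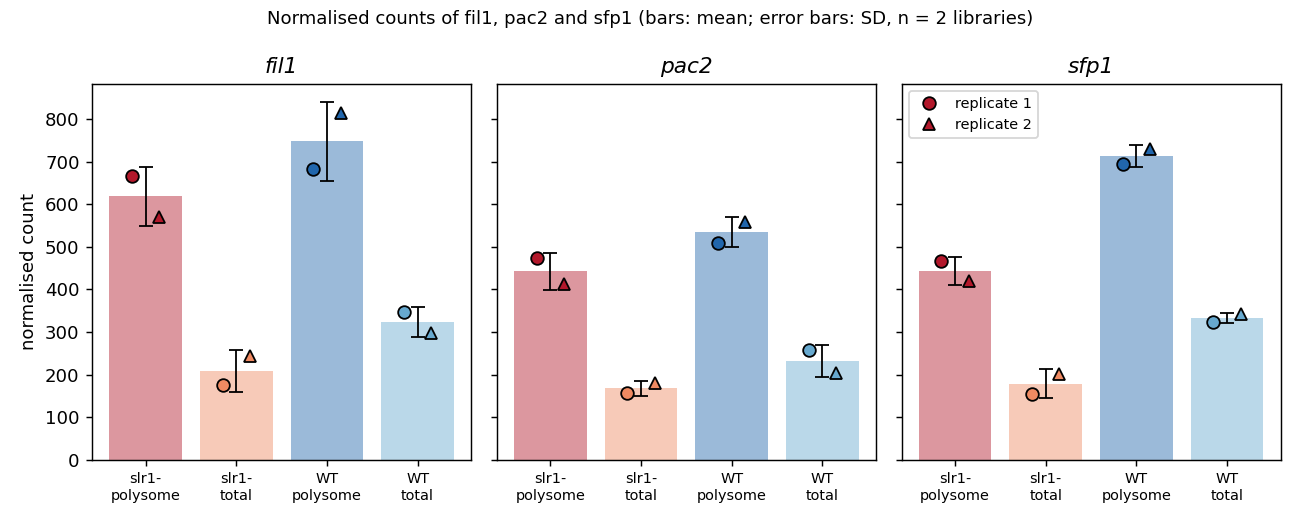
Normalised counts (y axis, TMM-scaled, linear from 0) of fil1, pac2 and sfp1 in slr1- polysome, slr1- total, WT polysome and WT total RNA (x axis). Points are libraries, bars the mean and error bars the SD of 2 libraries. In each strain both polysome libraries lie above both total libraries. In both kinds of RNA the slr1- libraries of all 3 genes lie below the WT libraries, with the widest gap for sfp1.

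In WT cells, the contrast that chose the genes, the same order held as a description. The fil1 mRNA had raw counts of 607 and 703 in WT polysome RNA and of 348 and 301 in WT total RNA. The pac2 mRNA had 453 and 483 in WT polysome RNA and 258 and 207 in WT total RNA. The sfp1 mRNA had 617 and 631 in WT polysome RNA and 324 and 345 in WT total RNA. No gene overlapped between the groups. The fold was 2.32 for fil1, 2.31 for pac2 and 2.14 for sfp1, with log2 differences of 1.21, 1.21 and 1.10. Of all listed genes 49.7% were called, 20.9% higher and 28.8% lower, and 38.7% were higher with no overlap between libraries.

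By this WT difference fil1 ranked 2, pac2 ranked 3 and sfp1 ranked 5 of 527 genes, and the rule behind the choice has no numerical threshold. The other genes among the 10 highest were tif5, the gene of initiation factor eIF5 (1.24), rpl3402, a ribosomal protein gene with a paralog whose reads the counting could have split from it or not (1.19), cut6, the acetyl-CoA carboxylase gene of fatty acid synthesis (1.06), and tif471, the eIF4G gene (1.06). They were followed by the histone chaperone gene nap1 (1.03), ura1 of pyrimidine synthesis (1.00) and the histone H2B gene htb1 (0.94). Of these 10 genes, 10 were also called higher in slr1- polysome than in slr1- total RNA, against 34% of all listed genes. Among the 10 highest there were 4 of them. The 3 members were not among those 4.

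**Figure D2:**
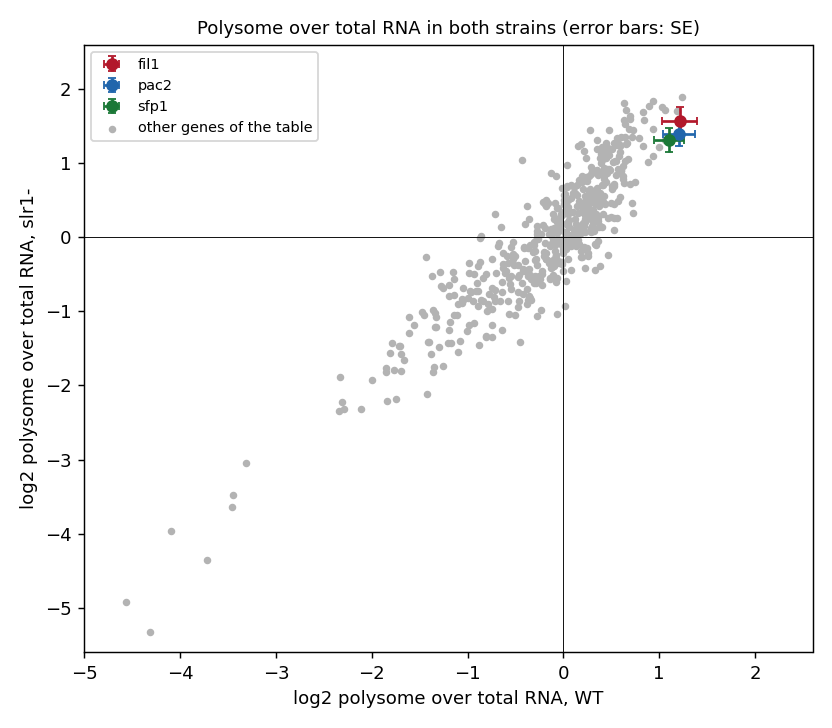
Log2 polysome over total RNA of each listed gene in slr1- cells (y axis) against WT cells (x axis), with the 3 members in colour and the other genes in grey, and error bars of 1 SE. The members lie at the right edge of the cloud, at 1.10 to 1.21 in WT and at 1.31 to 1.57 in slr1-.

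The strain difference in polysome over total RNA was close in size to its error. It was 0.36 ± 0.26 SE for fil1, 0.19 ± 0.24 SE for pac2 and 0.21 ± 0.22 SE for sfp1 on the log2 scale (slr1- minus WT), against a median of 0.15 over all listed genes. No p is given, since its WT arm chose the genes, and 0.38% of all listed genes were called. Leaving out each library in turn gave 0.12 to 0.61 for fil1, -0.04 to 0.35 for pac2 and 0.02 to 0.42 for sfp1. The lowest value of each gene came without replicate 1 of slr1- polysome RNA. The highest came without replicate 2 of slr1- total RNA for fil1 and sfp1, and without replicate 2 of WT total RNA for pac2. Joined by replicate number, which the labels and the data do not show to pair the libraries, it was 0.96 and -0.22 for fil1, 0.62 and -0.26 for pac2, and 0.49 and -0.05 for sfp1 in replicates 1 and 2. The table's medians joined in the same way were 0.18 and 0.06. In the authors' deposited table the ratio of polysome over total RNA in slr1- to that in WT, by replicate number, was 1.7 and 0.87 for fil1, 1.34 and 0.85 for pac2, and 1.23 and 0.99 for sfp1. For these genes the ratios are linear and follow from the raw counts without library scaling, unlike the log2 values above. The medians of the authors' deposited table were 0.99 and 1.06, and the false discovery rates of its second test, which the header does not name, were 0.933 for fil1, 0.884 for pac2 and 0.898 for sfp1. The authors' change type was nevertheless both for fil1 and sfp1 and translational only for pac2, with a direction of -1 for each. How the authors set these labels was not examined here. With TMM factors computed without ribosomal protein genes, the strain difference was 0.09 for fil1, -0.08 for pac2 and -0.05 for sfp1.

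In total RNA, the comparison of slr1- with WT asked how the abundance of each mRNA differs without Slr1p. The sfp1 mRNA fell in slr1- to 0.54 of WT, and fil1 fell to 0.65 of WT and pac2 to 0.73 of WT. The WT libraries in this comparison also entered the choice of the genes, so its tests are not independent of that choice. Of the listed genes 53.3% were called, 33.6% lower and 19.7% higher, so a fall was also common in the table. By scaling, the calls over all genes were 104 higher and 177 lower with TMM, 182 higher and 72 lower with TMM factors computed without ribosomal protein genes, and 60 higher and 260 lower with library totals alone.

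The sfp1 mRNA had normalised counts of 155 and 202 in slr1- total RNA against 324 and 341 in WT total RNA. The slr1- libraries lay below the WT libraries without overlap, as they did for 47.8% of the listed genes. The means were 179 ± 33.6 in slr1- and 333 ± 12.1 in WT (SD, n = 2 each), and the log2 change was -0.90 ± 0.16 SE (edgeR adjusted p = 0.00248). It ranked 30 of 527 genes from the lowest change. The call was kept under every alternative that gave a value, with changes from -1.10 to -0.57.

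The fil1 mRNA had normalised counts of 175 and 243 in slr1- total RNA against 348 and 298 in WT total RNA, again without overlap. The means were 209 ± 48.5 in slr1- and 323 ± 35.7 in WT (SD, n = 2 each), and the log2 change was -0.63 ± 0.19 SE (edgeR adjusted p = 0.0182). The call was lost without replicate 1 of slr1- total RNA (-0.41, edgeR adjusted p = 0.142), without replicate 1 of WT total RNA (-0.51, edgeR adjusted p = 0.0853) and with TMM factors computed without ribosomal protein genes (-0.30, edgeR adjusted p = 0.128). The adjusted p over all alternatives lay between 0.00581 and 0.142.

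The pac2 mRNA had normalised counts of 156 and 181 in slr1- total RNA against 258 and 205 in WT total RNA. The gap between the higher slr1- value and the lower WT value was narrow, and the log2 change was -0.46 ± 0.17 SE (edgeR adjusted p = 0.0446). This call rests on the settings: it was lost in 6 of 7 other settings and in 6 of 8 fits that left a library out, with adjusted p of 0.0117 to 0.477 over all alternatives. Those 6 fits left out replicate 1 or 2 of slr1- polysome RNA, replicate 1 of slr1- total RNA, replicate 1 or 2 of WT polysome RNA, or replicate 1 of WT total RNA, with log2 changes of -0.46 to -0.28. With library totals alone it was kept (-0.64), and with TMM factors computed without ribosomal protein genes the value was -0.13. In the authors' deposited table the false discovery rates in total RNA were 0.0574 for pac2, 0.0111 for fil1 and 0.000279 for sfp1.

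Other scalings moved the table's median in total RNA by 0.34 (TMM factors computed without ribosomal protein genes) and by -0.18 (library totals alone). The share of counts in ribosomal protein genes was 54.3% and 50.3% in slr1- total RNA and 45.5% and 45.3% in WT total RNA, and its part in these falls was not tested. Relative to the table's median, sfp1 lay at -0.71, fil1 at -0.44 and pac2 at -0.27, distances that a change of scaling leaves in place by construction. A lower level per cell and a change in the makeup of the other RNA cannot be told apart in such data.

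In polysome RNA, no listed gene was called between slr1- and WT. The background was 0% by edgeR, 100 genes had an unadjusted p under 0.05, DESeq2 called 27 genes and limma-voom 0. The WT polysome libraries entered the choice of the genes, and a choice for high WT polysome values favours a negative difference here, so these tests are not independent of it. The 3 members had negative values. The sfp1 mRNA had normalised counts of 466 and 420 in slr1- polysome RNA against 694 and 731 in WT polysome RNA. The groups did not overlap, and the means were 443 ± 32.9 in slr1- and 712 ± 25.9 in WT (SD, n = 2 each). Its log2 change was -0.68 ± 0.15 SE (edgeR adjusted p = 0.0818), the rank from the lowest change was 3 of 527, and it missed the threshold in each edgeR and limma-voom fit that gave a value, with an adjusted p of 0.0743 to 0.442. DESeq2 gave a log2 change of -0.68 ± 0.18 SE for sfp1. It was run with its filter on mean counts and gave no adjusted p for any of the 3 members, so it made no call either way for them.

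The fil1 mRNA had normalised counts of 667 and 569 in slr1- polysome RNA against 683 and 814 in WT polysome RNA, a log2 difference of -0.28 ± 0.18 SE (edgeR adjusted p = 0.430). The pac2 mRNA had 474 and 412 in slr1- polysome RNA against 510 and 559 in WT polysome RNA, a log2 difference of -0.27 ± 0.16 SE (edgeR adjusted p = 0.393). The slr1- libraries of both genes lay just below the WT libraries, a separation that 30.6% of the listed genes showed. The table's median was -0.03.

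**Figure D3:**
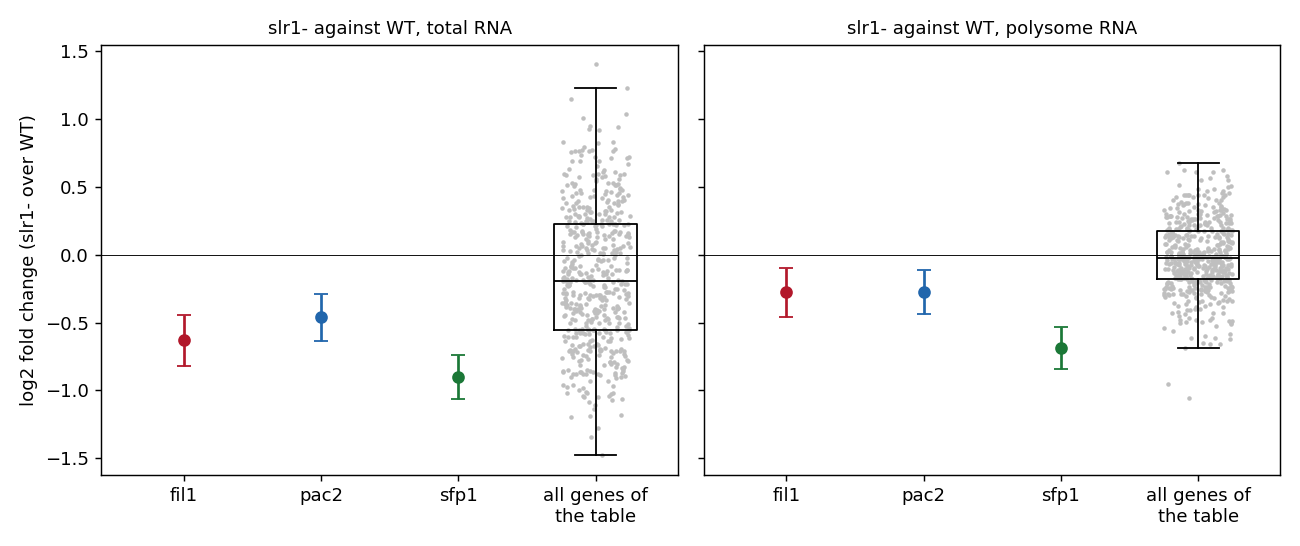
Log2 fold change of slr1- over WT (y axis) in total RNA (left) and in polysome RNA (right) for fil1, pac2 and sfp1 with 1 SE, beside all 527 genes of the table (grey points; box, quartiles with the median; whiskers reach to 1.5 times the box height). In polysome RNA sfp1 lies at -0.68, near the lower end of the table, and fil1 and pac2 at -0.28 and -0.27.

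Levels between the genes were compared per length, as CPM over the listed genes per kilobase. Per kilobase of annotated transcript, the order in slr1- total RNA was pac2 (319 ± 33.6), fil1 (92.7 ± 21.5) and sfp1 (90.6 ± 17.1), with fil1 and sfp1 within their spread (SD, n = 2 libraries each). In WT total RNA it was pac2 (438 ± 71.5), sfp1 (169 ± 6.13) and fil1 (143 ± 15.8). In slr1- polysome RNA pac2 had a level of 839 ± 83.2, fil1 275 ± 30.8 and sfp1 225 ± 16.7, and in WT polysome RNA pac2 had 1012 ± 66.7, sfp1 361 ± 13.2 and fil1 332 ± 41.2. The median over the 515 genes with a length was 620 in slr1- total RNA and 719 in WT total RNA, above all 3 genes. In polysome RNA the median was 743 in slr1- and 747 in WT, with pac2 above it on this scale only and fil1 and sfp1 below it in both strains. The pac2 model lacks untranslated parts, which could raise its level on this scale, so levels were also taken per kilobase of coding sequence. The annotation behind the counts was not given, so neither scale settles the order between the genes.

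Per kilobase of coding sequence, pac2 was again highest in every library, and the order of fil1 and sfp1 depended on the group. In slr1- polysome RNA the levels were 897 and 780 for pac2, 535 and 456 for fil1 and 471 and 424 for sfp1, and fil1 and sfp1 overlapped. In slr1- total RNA they were 295 and 342 for pac2, 156 and 204 for sfp1 and 140 and 195 for fil1, and the last pair overlapped. In WT polysome RNA they were 965 and 1059 for pac2, 700.2 and 737 for sfp1 and 547 and 652 for fil1, with no overlap. In WT total RNA they were 489 and 388 for pac2, 327 and 344 for sfp1 and 279 and 238 for fil1, with no overlap.

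The profile of fil1 over the 8 libraries was most like that of pac2, and the reverse held too. The Pearson correlation of log2 CPM between them was 0.992, the highest for either gene, and the 8 libraries stood in the same order in both (Spearman 1). The libraries fall into polysome and total RNA and share their scaling, so high coefficients were common: sfp1 had 0.958 with fil1 and was in place 46 among its neighbours. After pac2, the genes nearest to fil1 were zuo1, the ribosome-associated chaperone zuotin (0.988), rpl3402 (0.987), the chaperonin subunit gene cct3 (0.984) and the RNA helicase gene uap56 (0.983). After fil1, those nearest to pac2 were rpl3402 (0.986), the transaldolase gene tal1 (0.981), the eIF2 alpha gene tif211 (0.980) and zuo1 (0.976). The genes nearest to sfp1 were nog1, a GTP-binding protein of ribosome assembly (0.987), SPBPB7E8.01, an uncharacterized protein (0.985), the RNA helicase gene ste13 (0.984), the ABC-family gene SPBC16H5.08c (0.983) and tif471 (0.982). Spearman coefficients did not single these genes out: 10 genes tied at 1 with fil1, 10 with pac2 and 12 with sfp1.

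The long leaders and upstream ATGs were set beside the polysome values of the other genes. Over all listed genes, 34% were called higher in slr1- polysome than in slr1- total RNA and 30.7% lower, with a median log2 difference of 0.06. Of the 8 other genes among the 10 longest leaders, 5 were called higher in this comparison, 1 was called lower, and 2 were not called, with a median of 0.74. The pma1 gene, with the longest leader and 1 upstream ATG, had 1.17 in slr1- and 0.22 in WT, and acs1, with 5 upstream ATGs, had 0.16 in slr1- and 0.39 in WT. Of the 15 other genes with an upstream ATG, 7 were called higher, 1 was called lower and 7 were not called, with a median of 0.45 and a range of -0.90 to 1.89. The highest was tif5, with 2 upstream ATGs in a leader of 286 bases, which had the highest value of the table in both slr1- (1.89) and WT (1.24). Across 502 genes, Spearman's rho between leader length and polysome over total RNA was 0.29 in slr1-, and it was 0.03 across the 380 genes that are not ribosomal protein genes. For annotated transcript length the coefficients over the same genes were 0.44 and 0.23. For coding length they were 0.38 across 515 genes and 0.21 across the 389 that are not ribosomal protein genes. Ribosomal protein genes have short mRNAs and low polysome values here, genes are not independent replicates, and no p is given.

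**Figure D4:**
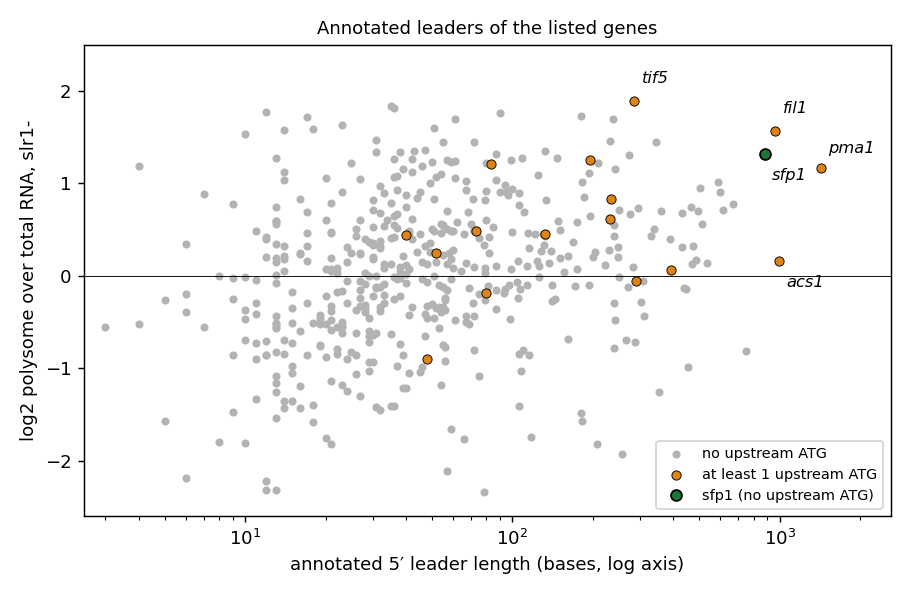
Log2 polysome over total RNA in slr1- cells (y axis) against annotated leader length in bases (x axis, log scale) for listed genes with an annotated leader, those with at least 1 upstream ATG in orange and sfp1 in green. The genes with upstream ATGs spread from -0.90 (below 0) to 1.89 (tif5), and fil1 and sfp1 lie at the upper right.

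Genes of the pathways around the members were taken from lists that hold the known parts of each pathway. Of 15 genes of Gcn2 and eIF2, the branch that controls fil1, 4 were in the table, fil1 among them. All 4 were higher in slr1- polysome than in slr1- total RNA, and the other 3 had a median of 1.18. They were tif5 (1.89 ± 0.19 SE), the eIF2 beta gene tif212 (1.18 ± 0.15 SE) and tif211 (0.40). In total RNA tif5 (-0.75 ± 0.19 SE) and tif212 (-0.66 ± 0.15 SE) fell in slr1- beside fil1, and tif211 did not pass (-0.14 ± 0.11 SE). Over all listed genes, 34% were called higher in slr1- polysome over total RNA, and 33.6% were called lower in total RNA. With TMM factors computed without ribosomal protein genes, tif211 was at 0.02 in slr1- polysome over total RNA and at 0.20 in total RNA and passed in neither, and tif5 was the gene called lower in total RNA.

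Of 72 amino acid synthesis genes, the class that Fil1 activates, 33 were in the table. In slr1- total RNA against WT, 33.6% of all listed genes fell and 19.7% rose. Among the 33 genes 10 fell, 2 rose and 21 did not pass there, with a median of -0.22 beside -0.19 over all genes. The lowest were ser1 of serine synthesis (-1.11 ± 0.22 SE), pro3 of proline synthesis (-0.89 ± 0.18 SE) and his7 of histidine synthesis (-0.71 ± 0.17 SE), and leu1 (0.39 ± 0.15 SE) and ilv5 (0.33 ± 0.12 SE) rose. In slr1- polysome over slr1- total RNA, 34% of all listed genes were higher and 30.7% lower, with a median of 0.06. Among the 33 genes 14 were higher, 6 were lower and 13 did not pass, with a median of 0.27. Here ser1 (1.72), pro3 (1.21) and his7 (1.19) were highest, and ilv3 (-1.81), ilv6 (-1.26) and arg1 (-1.22), of branched-chain amino acid and arginine synthesis, were lowest. The sign of the list's median depends on the scaling, which shifts the whole table too. With TMM factors computed without ribosomal protein genes the list's median was 0.11 in total RNA, with 7 rising and 5 falling. Over all listed genes that scaling gave a median of 0.15, with 182 rising and 72 falling. In polysome over total RNA the list's median was -0.12, with 8 higher and 7 lower. Over all listed genes the median there was -0.32, with 100 higher and 246 lower.

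Of 55 mating and cAMP genes, the setting of pac2, 2 were in the table. The other was sxa1, an aspartic protease that degrades a mating pheromone, which was lower in slr1- polysome than in slr1- total RNA (-0.85 ± 0.21 SE, but -0.45 and not called with library totals alone). In total RNA against WT it did not pass (-0.39 ± 0.20 SE), and it was called lower with library totals alone (-0.57). Of 41 genes of TOR and nutrient signalling, sfp1 was the member in the table.

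Fission yeast genes of the classes that budding yeast Sfp1 activates had polysome values on both sides of the table's median. Of the 16 ribosome biogenesis genes in the table, 13 were higher and 1 was lower in slr1- polysome than in slr1- total RNA, with a median of 0.91. The highest were the snoRNP gene gar1 (1.82 ± 0.24 SE), the nucleolin gene gar2 (1.70 ± 0.15 SE) and the snoRNP gene nop56 (1.45 ± 0.18 SE), and the fibrillarin gene fib1 was lower (-0.65 ± 0.25 SE). Of 126 ribosomal protein genes, 5 were higher and 83 were lower there, with a median of -0.52. Over all listed genes, 34% were higher and 30.7% lower there, with a median of 0.06. The value of sfp1, 1.31, was above the medians of both lists. In total RNA sfp1 fell beside 14 of the 16 ribosome biogenesis genes (0 rose, median -0.70), while of the ribosomal protein genes 75 rose and 4 fell (median 0.38). Over all listed genes, 33.6% fell and 19.7% rose in total RNA. Under the other scalings the ribosome biogenesis medians stayed positive in slr1- polysome over total RNA and negative in total RNA, and those of the ribosomal protein genes had the opposite signs. They ran from 0.53 to 1.31 and from -0.89 to -0.37 for ribosome biogenesis genes, and from -0.91 to -0.11 and from 0.20 to 0.73 for ribosomal protein genes. The counts moved with the scaling. With TMM factors computed without ribosomal protein genes, 9 ribosome biogenesis genes were higher and 2 lower in slr1- polysome over total RNA, and 7 fell and 0 rose in total RNA, while of the ribosomal protein genes 2 were higher and 106 lower in slr1- polysome over total RNA, and 107 rose and 1 fell in total RNA. With library totals alone, 13 ribosome biogenesis genes were higher and 0 lower, and 15 fell and 0 rose in total RNA. Of the ribosomal protein genes 24 were higher and 49 lower, and 48 rose and 8 fell in total RNA. Over all listed genes, 292 were higher and 94 lower with library totals alone, and 60 rose and 260 fell in total RNA. In polysome RNA against WT 0 genes of these lists were called by edgeR, as in the whole table.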

How the data were processed

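RNA of 8 libraries was depleted of ribosomal RNA, made into stranded libraries and sequenced as single 50 bp reads, per the labels' protocols. Bowtie and RSEM are named in the submitters' processing notes. Their versions, the build and the annotation were not given in the sources used here. As whole numbers, the authors deposited counts for 527 genes, part of a longer table. Shares, medians, ranks and TMM factors are therefore over these genes and not over all genes of the yeast. Totals were 550490 to 1110838 per library and are not the full depth, so the counting error of each value rests on its own count. Libraries of the same group also varied beyond counting error. The chi-square between them ran from 3369.94 (WT polysome RNA) to 13602.5 (WT total RNA) on 526 degrees of freedom. The precision of each value thus rests on this variation too. Per the file headers the deposited table also holds log2 fold changes, p-values with false discovery rates, a change type and a direction score. It also holds ratios, of slr1- to WT, of polysome over total RNA by replicate number and of summed total RNA.

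The fit used the quasi-likelihood model of edgeR 4.0.16 (R 4.3.3) on the counts of all 8 libraries, with TMM factors and a mean for each of the 4 groups (4 residual degrees of freedom, biological coefficient of variation 0.113). Tests were two-sided, adjusted by Benjamini-Hochberg over 527 genes with a threshold of 0.05. Each SE was derived from the log2 fold change and its F statistic. No gene was filtered (lowest mean 161). The script was tested on simulated counts. Nothing in the labels says that replicates came from separate cultures beyond the word biological, so the p-values cover only how these libraries vary.

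Gene names, leaders and sequences came from RefSeq assembly ASM294v3, in which 515 identifiers were found. The deposited table has no coordinates, so identifiers alone joined it to the assembly. Members and lists were chosen with earlier results of these data known. The text names the 3 members, the 5 genes most like each (log2 CPM, prior count 2), the 10 genes highest in WT polysome over total RNA, the longest leaders, and up to 3 genes per direction for each list. The leaders and upstream ATGs were examined after the values were seen. Alternatives were DESeq2 1.42.0, limma-voom (limma 3.58.1), other scaling factors, genes of at least 500 mean counts, the compared groups only, replicate blocks, and each library left out.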

Additional observations from a re-analysis of the deposited data

How the results depend on the processing

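Polysome over total RNA in slr1- kept its call for fil1, pac2 and sfp1 under all alternatives that gave a value, with log2 values of 1.20 to 1.97, 1.02 to 1.80 and 0.94 to 1.72 over the other settings and 1.34 to 1.82, 1.18 to 1.51 and 1.13 to 1.52 with a library left out. All 3 members have means under 500 counts, so the filter gave none for them. In total RNA the fil1 call was lost with TMM factors computed without ribosomal protein genes (-0.30), and the left-out values ran from -0.89 to -0.41. The pac2 call was lost with DESeq2 (-0.38), limma-voom (-0.46), DESeq2 size factors (-0.38), TMM factors computed without ribosomal protein genes (-0.13), a replicate block (-0.46) and the groups compared alone (-0.34), and with a library left out it ran from -0.62 to -0.28. The replicate block changed no other member's call. WT values moved with library totals alone to 1.53 (fil1), 1.52 (pac2) and 1.41 (sfp1), and for sfp1 with TMM factors computed without ribosomal protein genes to 0.99.

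Counts of genes past the threshold with at least 500 mean counts were 197 (slr1- polysome over total, against 341), 134 (total RNA, against 281) and 160 (WT polysome over total, against 262), where fewer genes were tested. With a library left out they were 277 to 351 (slr1- polysome over total), 127 (without replicate 1 of slr1- total RNA) to 288 (total RNA), 0 to 2 (polysome RNA) and 163 (without replicate 1 of WT polysome RNA) to 283 (WT polysome over total). DESeq2 called 27 genes in polysome RNA, against 0. The strain difference called 2 genes, against 37 (DESeq2), 0 (limma-voom), 0 (TMM factors computed without ribosomal protein genes), 31 (library totals alone), 13 (at least 500 counts), 9 (replicate block), 46 (replicate block within strain) and 0 to 77 with a library left out (77 without replicate 2 of slr1- total RNA, 32 without replicate 1 and 5 without replicate 2 of WT total RNA, and 0 without either slr1- polysome library, replicate 1 of slr1- total RNA or replicate 1 of WT polysome RNA). The cause was not tested. Same-numbered libraries deviated together with correlations of -0.29 to 0.29 between groups (0.07 for slr1- and 0.29 for WT polysome with total RNA), so the numbers were not taken as pairs.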
